A study of Mus musculus with 48 samples.

Results

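Expression of 9 genes of the Nodal pathway was described across 48 single mouse cells: the ligand Nodal and its co-receptor Tdgf1, the secreted antagonists Lefty1, Lefty2 and Cer1, the receptors Acvr2b and Acvr1b, and the nuclear effectors Foxh1 and Smad2. The genes were chosen by their place in the pathway, with earlier results of these data known. Each was found on 1 row of a table of 23284 gene symbols. The cells came from mouse embryonic stem cells (129P2/OlaHsd) carrying a Mesp1 gene that doxycycline switches on; Mesp1 is a transcription factor of nascent cardiovascular mesoderm. The stem cells were grown as embryoid bodies, floating aggregates in which differentiation starts, with doxycycline at 500 ng/ml, given on day 2.25 and withdrawn on day 3.25. On day 4, cells excluding propidium iodide, which stains dead cells, were sorted and captured on a Fluidigm C1 device. All 48 cells received doxycycline, so no uninduced cells were there to compare with, and the labels name no separate cultures. The cells therefore stand as 1 sample: they were described, and nothing was tested between them.

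Nodal is a secreted factor of the TGF-beta family that patterns the early embryo and is needed for the primitive streak, mesoderm and endoderm. It binds a type II receptor (such as Acvr2b) and a type I receptor (Acvr1b, also called ALK4) together with an EGF-CFC co-receptor such as Tdgf1 (Cripto). The activated receptors phosphorylate Smad2, which enters the nucleus with Smad4 and is brought to target genes by DNA-binding partners such as Foxh1. Lefty1 and Lefty2 are themselves targets of the pathway and block the ligand and its co-receptor, while Cer1 binds and holds back Nodal and BMP ligands outside the cell.

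Levels are given as FPKM (fragments relative to the length of the transcript and to all mapped fragments), so that they can be set side by side between genes; a gene was counted as detected in a cell at 1 FPKM or more. Between 4788 and 7010 gene symbols were detected per cell, with a median of 6506 in the 25 cells whose label carries a number up to 48 and of 5711 in the 23 cells with higher numbers. The table holds no read counts, so the depth of a cell is unknown. Hprt, a gene that all cells use, was listed at 0 in 13 cells, and a value of 0 is therefore reported only as listed. Of markers of nascent mesoderm, 7 of 7 were detected in at least 25% of cells, a mark that 35.8% of all symbols reached. They were led by Pdgfra in 31 and by Mesp1 and Mixl1 in 30 each. Mesp1 was also the gene switched on by doxycycline, and its values do not separate that gene from the cells' own. Of pluripotency markers 5 of 7 reached the 25% mark, led by Nanog in 46 cells, Pou5f1 in 26 and Dppa5a in 21. Of definitive endoderm markers 3 of 6 did, led by Cxcr4 in 19 cells and Hhex in 16, while Sox17 was detected in 1 cell and Foxa1 in none. Of visceral endoderm markers only Rhox5, in 15 cells, did, and Afp, Amn and Hnf4a were below 1 FPKM in all cells.

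The pathway was unevenly represented (plot of members by cell). Foxh1, Acvr2b, Tdgf1, Smad2 and Cer1 were each detected in at least 25% of cells, and Lefty2, Nodal, Lefty1 and Acvr1b in fewer. That made 5 of 9 members, where 35.8% of all symbols, and 50.1% of the symbols with any value above 0, reached the same mark. By median level the order was Foxh1 (157 FPKM), Tdgf1 (54.6 FPKM), Acvr2b (9.90 FPKM), Smad2 (2.53 FPKM) and Cer1 (0.195 FPKM), with medians of 0 for Nodal, Lefty1, Lefty2 and Acvr1b. The range between the quartiles of each gene overlapped that of its neighbour in this order, so no neighbours stood apart beyond the spread over cells.

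**Figure D1:**
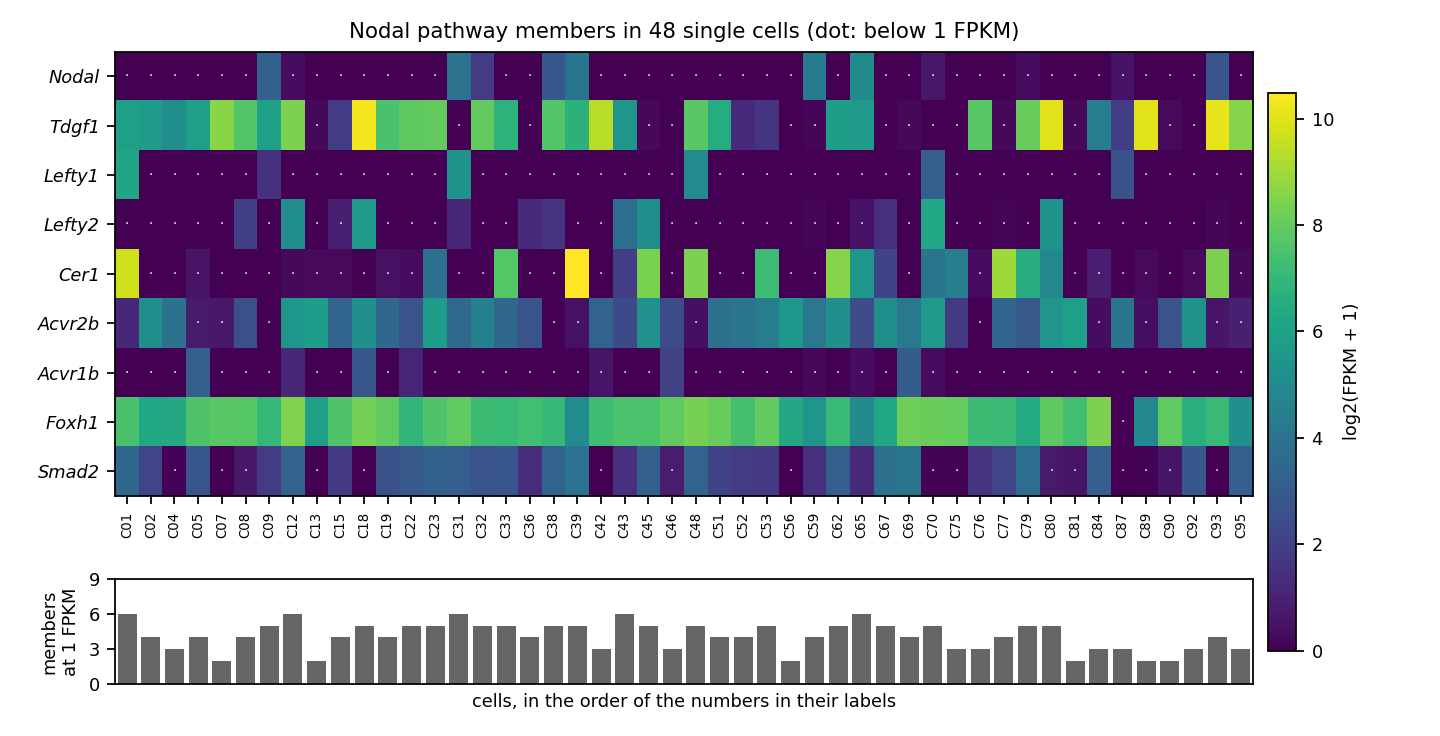
Level of each of the 9 members as log2(FPKM + 1) (colour) in each of the 48 cells, ordered by the number in the cell's label, with dots for values below 1 FPKM; bars give the number of members detected per cell. Foxh1 fills its row but for 1 cell, Tdgf1 and Cer1 alternate between very high and near-absent values, and no cell holds more than 6 members.

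Nodal (chromosome 10, 61417972 to 61425338, plus strand, GRCm38) was detected in 8 of 48 cells (16.7%, exact Clopper-Pearson 95% interval 7.48% to 30.2%) and listed at 0 in 36. Its values in the 8 cells were 31.4 FPKM in cell C65, 18.97 in C59, 15.7 in C39, 15.1 in C31, 8.65 in C09, 6.32 in C38, 6.03 in C93 and 2.53 in C32. The remaining 4 values above 0 lay under 1 FPKM, so the ligand was detected in a minority of cells, at modest levels. The 8 cells were spread over the label numbers, 5 up to 48 and 3 above. Mesp1, the induced gene, was detected in 3 of these 8 cells, against 30 of all 48.

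Tdgf1 (chromosome 9, 110939603 to 110946158, minus strand) was detected in 33 cells (68.75%, interval 53.7% to 81.3%). Its lowest value was 0, its median 54.6 FPKM and its highest 1248 FPKM, in cell C18. The gene was close to all or none: 19 cells were at 100 FPKM or more and 10 between 10 and 100, while 8 cells listed it at 0 and 7 lay above 0 but under 1 FPKM. Cells C93, C80 and C89 (1081, 1049 and 1033 FPKM) came next after C18, and no cell held more than 13.9% of the summed level. Processed pseudogenes resemble its transcript (98.8% identity over 512 bases for Tdgf1-ps1, 90.4% over 509 bases for Tdgf1-ps2), and how the authors' counting assigned reads shared with such copies was not stated.

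Promoter sequence is shown for Nodal, Tdgf1 and Cer1, the ligand, the co-receptor and an antagonist, because binding patterns of the pathway's own effectors can be looked up in it; the windows of the receptors Acvr2b and Acvr1b were searched and are not printed. Each sequence is the 250 bases before the start of the RefSeq gene (GRCm38.p6), read 5′ to 3′ on the gene's strand: chr10:61417722-61417971 (plus) for Nodal, chr9:110946159-110946408 (minus) for Tdgf1 and chr4:82885152-82885401 (minus) for Cer1. Capitals mark matches, on either strand, to the FOXH1 pattern AATNNACA, the SMAD core CAGAC, the SMAD palindrome GTCTAGAC and the T-box core ACACCT, the latter for factors such as Eomes.
Nodal: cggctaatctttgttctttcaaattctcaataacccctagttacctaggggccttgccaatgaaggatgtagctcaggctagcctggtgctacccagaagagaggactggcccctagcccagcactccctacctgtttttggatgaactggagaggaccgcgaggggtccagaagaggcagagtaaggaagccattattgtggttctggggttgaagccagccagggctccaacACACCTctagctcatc
Tdgf1: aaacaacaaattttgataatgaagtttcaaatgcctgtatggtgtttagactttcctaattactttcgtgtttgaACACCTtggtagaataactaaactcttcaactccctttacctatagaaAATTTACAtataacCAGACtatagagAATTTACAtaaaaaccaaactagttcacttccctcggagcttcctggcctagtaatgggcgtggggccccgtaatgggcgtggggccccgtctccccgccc
Cer1: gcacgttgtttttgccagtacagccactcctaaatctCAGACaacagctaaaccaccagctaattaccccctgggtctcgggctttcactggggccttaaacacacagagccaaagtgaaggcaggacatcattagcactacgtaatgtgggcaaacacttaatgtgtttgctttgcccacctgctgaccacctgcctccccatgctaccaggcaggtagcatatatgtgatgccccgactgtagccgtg
The Tdgf1 window held AATTTACA at -127 to -120 and again at -101 to -94 from the start, with CAGAC at -113 to -109 between them and ACACCT at -175 to -170. The Nodal window held ACACCT at -16 to -11, and the Cer1 window CAGAC at -213 to -209. The Acvr2b window held the SMAD core on the opposite strand at -233 to -229, and the Acvr1b window held none of the patterns. None of the matches overlapped. Over 32851 promoter windows of the same length, 10.9% held the FOXH1 pattern and 1.12% held it at least 2 times, 42.2% held the SMAD core, 0.167% the palindrome and 11.8% the T-box core. Such matches are letters in a window and were not set against any measure of binding. Of the 9 members, 5 had an entry, which leaves Lefty1, Lefty2, Foxh1 and Smad2.

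Of the antagonists, Cer1 (chromosome 4, 82881751 to 82885148, minus strand) was the most widely detected, in 17 cells (35.4%, interval 22.2% to 50.5%). Its values ran from 0 over a median of 0.195 FPKM to 1435 FPKM in cell C39, with 844 FPKM in C01 next. At 100 FPKM or more there were 9 cells, and 11 cells were above 0 but under 1 FPKM, of which 8 lay between 0.181 and 0.239 FPKM. Cell C39 alone held 30.2% of the summed Cer1. Mesp1 was detected in 10 of the 17 Cer1 cells, against 30 of all 48. Otx2, a homeobox gene of anterior identity outside the lists, was detected in 14 of the 17, against 24 of all 48.

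Lefty2 (chromosome 1, 180893108 to 180899103, plus strand) reached 1 FPKM in 11 cells (22.9%, interval 12.03% to 37.3%), between 0 and 76.8 FPKM with a median of 0. It was highest in cells C70 (76.8 FPKM), C18 (48.8), C80 (42.4), C45 (36.3), C12 (34.5) and C43 (12.7), and below 10 FPKM in the other detecting cells. Lefty1 (chromosome 1, 180935022 to 180938400, plus strand), its neighbour on the chromosome, was found in 6 cells (12.5%, interval 4.73% to 25.2%). Its values there were 73.0 FPKM in C01, 42.2 in C31, 32.2 in C48, 7.85 in C70, 5.22 in C87 and 1.79 in C09, and all other cells listed it at 0. The cell with the most Lefty1 held 45.01% of its sum. The antagonist pair was met together in 2 cells only, C31 and C70. Transcripts of Lefty1 and Lefty2 are 91.4% identical over 1157 bases, so a read from one may have been counted for the other.

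The type II receptor Acvr2b (chromosome 9, 119402118 to 119434995, plus strand) reached 1 FPKM in 37 cells (77.1%, interval 62.7% to 88.0%). It ranged from 0 to 59.6 FPKM around a median of 9.90 FPKM, and 24 cells lay between 10 and 100 FPKM, a graded spread rather than the wide split of Tdgf1. An antisense gene, Gm47320, overlaps Acvr2b in the annotation, and without strand its reads cannot be told apart. The type I receptor Acvr1b (chromosome 15, 101174067 to 101213684, plus strand) reached 1 FPKM in 6 cells (12.5%, interval 4.73% to 25.2%). Those values were low: the highest were 7.86 FPKM in C05 and 7.58 in C69, and 38 cells listed the gene at 0. Of the 6 Acvr1b cells, 5 carried label numbers up to 48, where more genes were detected per cell, and Acvr1b had rho = 0.24 with the number of detected genes; the part of depth in its count was not tested.

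Foxh1 (chromosome 15, 76668225 to 76669948, minus strand), which guides Smad complexes to DNA, was detected in 47 cells (97.9%, interval 88.9% to 99.9%), more than any other member. Its lowest detected value was 28.5 FPKM, its median over all cells 157 FPKM and its highest 351 FPKM, and 36 cells were at 100 FPKM or more. Cell C87, the cell with the fewest detected genes (4788), was the exception and listed it at 0. Smad2 (chromosome 18, 76241580 to 76310963, plus strand) reached 1 FPKM in 32 cells (66.7%, interval 51.6% to 79.6%) at far lower levels, from 0 over a median of 2.53 FPKM to 15.9 FPKM. The cells with Smad2 were all among those with Foxh1.

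The pattern of Foxh1 over cells was shared with a chromosomal neighbour. Of 8337 other genes, the one whose pattern was most like that of Foxh1 was Kifc2, a kinesin gene on the opposite strand, with Spearman's rho = 0.80 and Pearson's r = 0.85 over the 48 cells. Kifc2 (chromosome 15, 76659858 to 76668196) ends 28 bases from the end of Foxh1 in the GENCODE M21 annotation. Kifc2 was detected in the same 47 cells and listed at 0 in the same cell C87, with a median of 17.6 FPKM. The level of Foxh1 was a median of 9.70 times that of Kifc2, with quartiles of 7.73 and 11.7 and extremes of 2.62 and 25.4. Without the 2 cells farthest from the median of Foxh1, C87 among them, r was 0.69, and rho was 0.79 in each part of the label numbers. The neighbours on the far sides did not share the pattern: Foxh1 had rho = 0.14 with Cyhr1 and -0.077 with Ppp1r16a. Whether the authors' counting used strand is not given in the sources used here, so reads across the shared end cannot be told apart, and the Foxh1 values carry this limit throughout. Ranked after Kifc2 were Tmem175 (rho = 0.57), which codes for a channel of lysosomes, and Vldlr (rho = 0.57), a lipoprotein receptor. In all, 0.54% of genes had a rho of at least 0.4 with Foxh1.

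Members were next examined together. A cell held a median of 4 of the 9 members, from 2 in 6 cells to 6 in 5 cells (C01, C12, C31, C43 and C65), and 0 cells held all 9. The number rose somewhat with the number of detected genes (rho = 0.36 over 48 cells of unknown depth), with medians of 5 at label numbers up to 48 and 4 above. Tdgf1, Acvr2b, Foxh1 and Smad2 were found together in 16 cells. Adding Acvr1b left 2 cells, and adding Nodal in its place left 2 cells. Singly, Tdgf1 was in 68.75% of cells, Acvr2b in 77.1%, Foxh1 in 97.9% and Smad2 in 66.7%. Acvr1b was in 12.5% and Nodal in 16.7%, and no departure from these single shares was read from the joint counts.

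**Figure D2:**
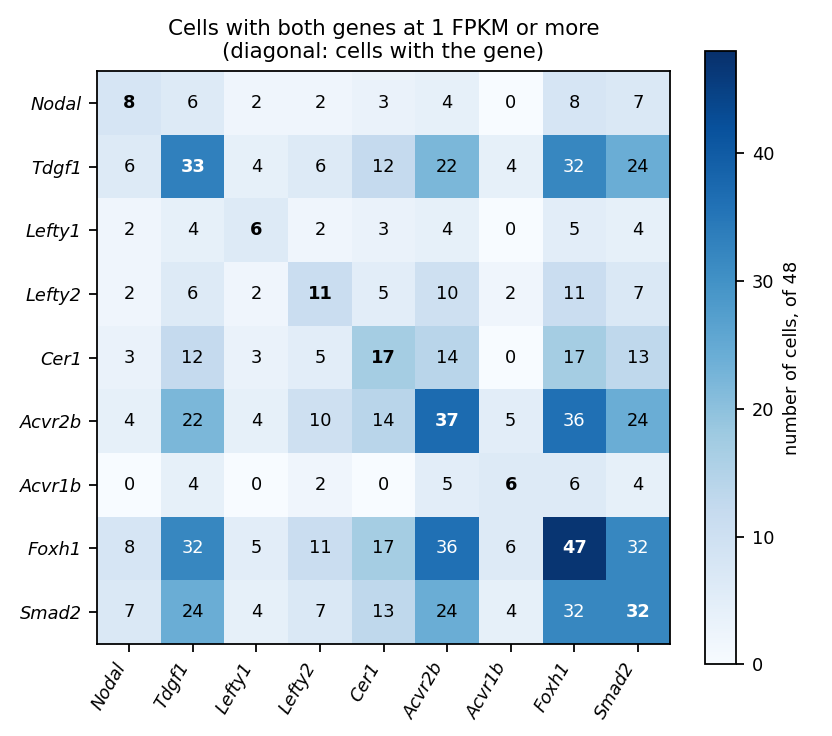
Number of cells, of 48, in which both genes of a pair reached 1 FPKM, with the number for each gene alone on the diagonal. Nodal and Acvr1b share 0 cells, as do Acvr1b and Lefty1 and Acvr1b and Cer1, while all 8 Nodal cells fall within the 47 Foxh1 cells. With Acvr1b in only 6 cells and Foxh1 in nearly all, these counts were not read as exclusion or as joint expression.

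The other members were then counted in the cells with the ligand (plot of co-detection). Of the 8 Nodal cells, 6 also had Tdgf1, 4 Acvr2b, 7 Smad2, 8 Foxh1 and 0 Acvr1b. Over all 48 cells the shares were 68.75% for Tdgf1, 77.1% for Acvr2b, 66.7% for Smad2, 97.9% for Foxh1 and 12.5% for Acvr1b, and with 8 Nodal cells no departure from these shares was read from the counts. An antagonist was detected in 6 of the 8, namely Cer1 in 3, Lefty1 in 2 and Lefty2 in 2. Conversely 25 cells had at least 1 antagonist, and 19 of these had no detected Nodal. A single antagonist was met in 17 cells, a pair in 7 and all 3 in 1 cell, C70. Of the 17 Cer1 cells 12 had Tdgf1 and 13 had Smad2. Absence from a count here means below 1 FPKM, and for a gene in 0 of 48 cells the exact 95% interval still reaches a share of 7.40%, for counting error only.

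Levels of the members were compared with each other across cells. Of 36 pairs, 0 had an absolute rho of 0.4 or more, a size that 0.644% of all pairs of genes detected in at least 5 cells reached. With so small a share over all pairs, the count of 0 was not read as a result about the members. The pairs ran from rho = -0.30 (Tdgf1 and Acvr2b, r = -0.38) to rho = 0.34 (Cer1 and Smad2, r = 0.30), with a median of 0.041 beside 0.015 over all pairs of genes. Nodal had rho = 0.33 (r = 0.16) with Lefty1 and rho = 0.050 (r = 0.031) with Tdgf1. Its rho with Lefty1 rests in part on values below 1 FPKM: among the cells with Lefty1, Nodal was 0.579 in C70 and 0.428 in C87. For Nodal and Lefty2 the sign depended on the measure, at rho = 0.26 and r = -0.060. All points come from the same 48 libraries, many values are 0, and relations of this size are given as a description. In the 25 cells with label numbers up to 48, 2 pairs reached the size (Cer1 and Smad2, rho = 0.60, and Nodal and Smad2, rho = 0.45), beside 5.11% of all pairs of genes. In the 23 cells with higher numbers, 6 pairs did, led by Nodal and Acvr1b (rho = 0.54) and Tdgf1 and Acvr2b (rho = -0.52), beside 6.29%. The first of these rests on Acvr1b values below 1 FPKM, such as 0.288 in C65 and 0.174 in C59. Among these 23 cells Acvr1b was detected only in C69, where Nodal was listed at 0. Over all 48 cells Nodal and Acvr1b had rho = 0.13 and r = -0.11. No pair reached it in both parts.

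Tdgf1 was compared with genes outside the 9 in the same way. The gene most like it was Eomes, a T-box factor of mesoderm and endoderm (chromosome 9, 118478212 to 118486132). The 2 genes had rho = 0.76 and r = 0.66 over 48 cells of unknown depth, and r = 0.69 without the 2 cells farthest from the median of Tdgf1. Eomes had a median of 28.2 FPKM and a highest value of 211 FPKM, and 30 cells held both genes, 3 only Tdgf1, 5 only Eomes and 10 neither. The relation was rho = 0.85 at label numbers up to 48 and 0.70 above. An antisense gene, Gm33460, overlaps Eomes in the annotation, and without strand its reads cannot be told apart. Sall4, a zinc finger factor of early embryonic cells detected in all 48 cells, came next with rho = 0.67 (0.55 and 0.74 in the 2 parts), followed by Upp1, a uridine phosphorylase gene, with rho = 0.62 (0.66 and 0.57). Of genes tried with Tdgf1, 0.9% had a rho of at least 0.4 and 0.54% one of -0.4 or lower.

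**Figure D3:**
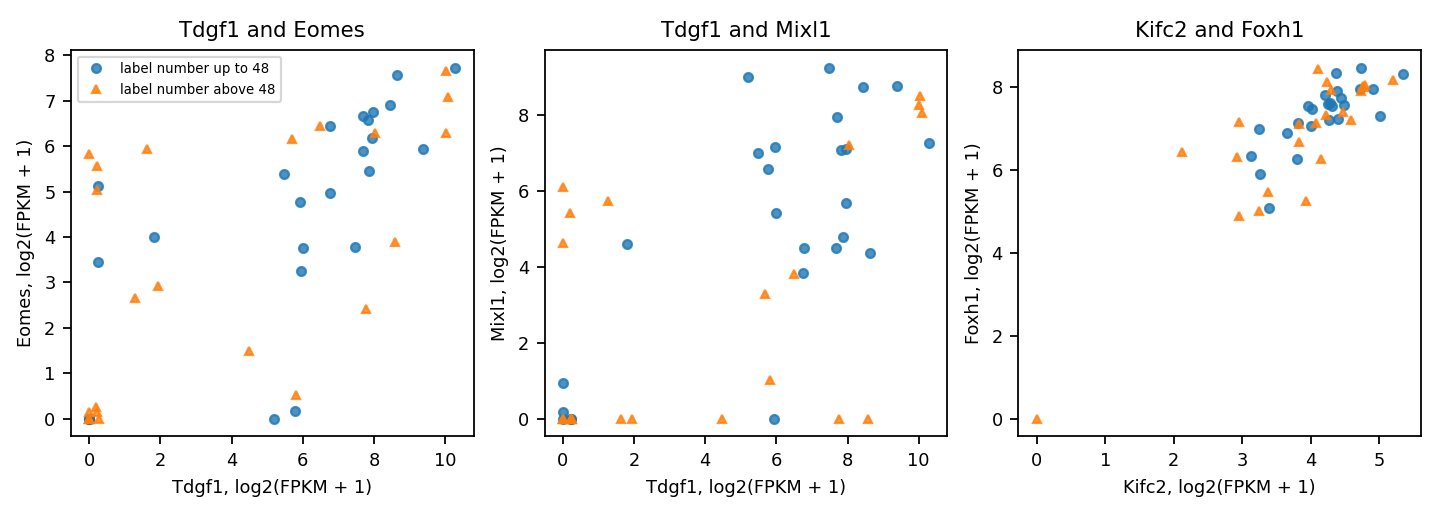
Levels as log2(FPKM + 1) of Tdgf1 with Eomes and with Mixl1, and of Kifc2 with Foxh1, with 1 point per cell and the shape giving the part of the label numbers. Most cells with Tdgf1 also have Eomes (rho = 0.76) or Mixl1 (rho = 0.59), and Foxh1 follows Kifc2 (rho = 0.80), with cell C87 alone at 0 for the latter pair.

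Only some genes of the streak had a relation of that size with Tdgf1. Among 32 pathway and marker genes detected in at least 12 cells, 4 had a rho of at least 0.4 with it. These were Eomes, Mixl1 (a homeobox factor of the streak, rho = 0.59), Pou5f1 (the pluripotency factor Oct4, rho = 0.44) and Lhx1 (a LIM homeobox factor, rho = 0.41). The Mixl1 relation was rho = 0.56 and 0.40 in the 2 parts, and 27 cells held both genes. Pou5f1 fell to rho = 0.20 at label numbers up to 48 and to 0.32 without the 7 cells with the fewest detected genes, and Lhx1 to r = 0.32, so these relations were not of that size throughout. Other target and mesoderm genes of the lists were below 0.4 over the 48 cells. They were T (rho = 0.34), Wnt3 (0.29), Foxa2 (0.28), Tbx6 (0.15), Fgf8 (0.12) and Mesp1 (0.014). On the negative side were Kdr (-0.022), Pdgfra (-0.16) and Hand1 (-0.20). Cfc1, the other EGF-CFC co-receptor, had rho = 0.13 with Tdgf1. The summed level of the 7 pluripotency markers, which ran from 1.01 to 4570 FPKM, had rho = 0.30 with Tdgf1. That of the 7 mesoderm markers, the induced Mesp1 among them, ran from 3.90 to 777 FPKM. It had rho = 0.40, though singly only Mixl1 of these 7 reached 0.4. Both sums add FPKM, so the genes with the highest means weigh most, Dppa5a (242 FPKM) and Mixl1 (93.7 FPKM). The part of either marker list in the Tdgf1 pattern was not tested.

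For Cer1, Acvr2b and Smad2 the leading relations reached at most rho = 0.59. For Cer1 the leading genes were Pdcd4 (rho = 0.51), an inhibitor of translation, Trnau1ap (rho = 0.50), which acts with the selenocysteine tRNA, and Pias1 (rho = 0.50), a SUMO ligase. Of the 32 listed genes only Foxa2, an endoderm factor detected in 12 cells, had a rho of at least 0.4 with Cer1 (rho = 0.40, and 0.35 at label numbers up to 48), where 0.42% of all genes tried did. For Acvr2b they were Smc6 (rho = 0.54), of a complex that guards chromosomes, BC055324 (rho = 0.49) and the cell cycle kinase Cdk2 (rho = 0.47), and of the listed genes only Pdgfra (rho = 0.40, and 0.28 above label number 48) beside 0.348% of genes. For Smad2 they were Tmem209 (rho = 0.59), Pqlc2 (rho = 0.51), a lysosomal transporter, and Ofd1 (rho = 0.50), a centriole gene. Foxa2 again was the only listed gene at that size with Smad2 (rho = 0.47), at rho = 0.70 up to label number 48 and 0.25 above, beside 0.492% of genes. Each of these genes was picked as the highest of 8337, which by itself favours large values. Nodal, Lefty1, Lefty2 and Acvr1b were below 12 cells and were not searched.

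The rest of the pathway was then read beside the members (plot of detection by role). Of 30 further genes, 19 reached the mark of 25% of cells, and 4 were in no cell. That mark was reached by 35.8% of all symbols and by 50.1% of those with any value above 0. Among other ligands 0 of 4 reached the mark: Gdf3 was detected in 7 cells and Gdf1 in 6, while Inhba was listed at 0 in all cells and Inhbb stayed below 1 FPKM. Counting Nodal, Gdf1 and Gdf3 together, 16 cells had at least 1 of these ligands. Of the convertases that cut the Nodal precursor, Furin was detected in 32 cells (median 1.38 FPKM) and Pcsk6 in 2.

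**Figure D4:**
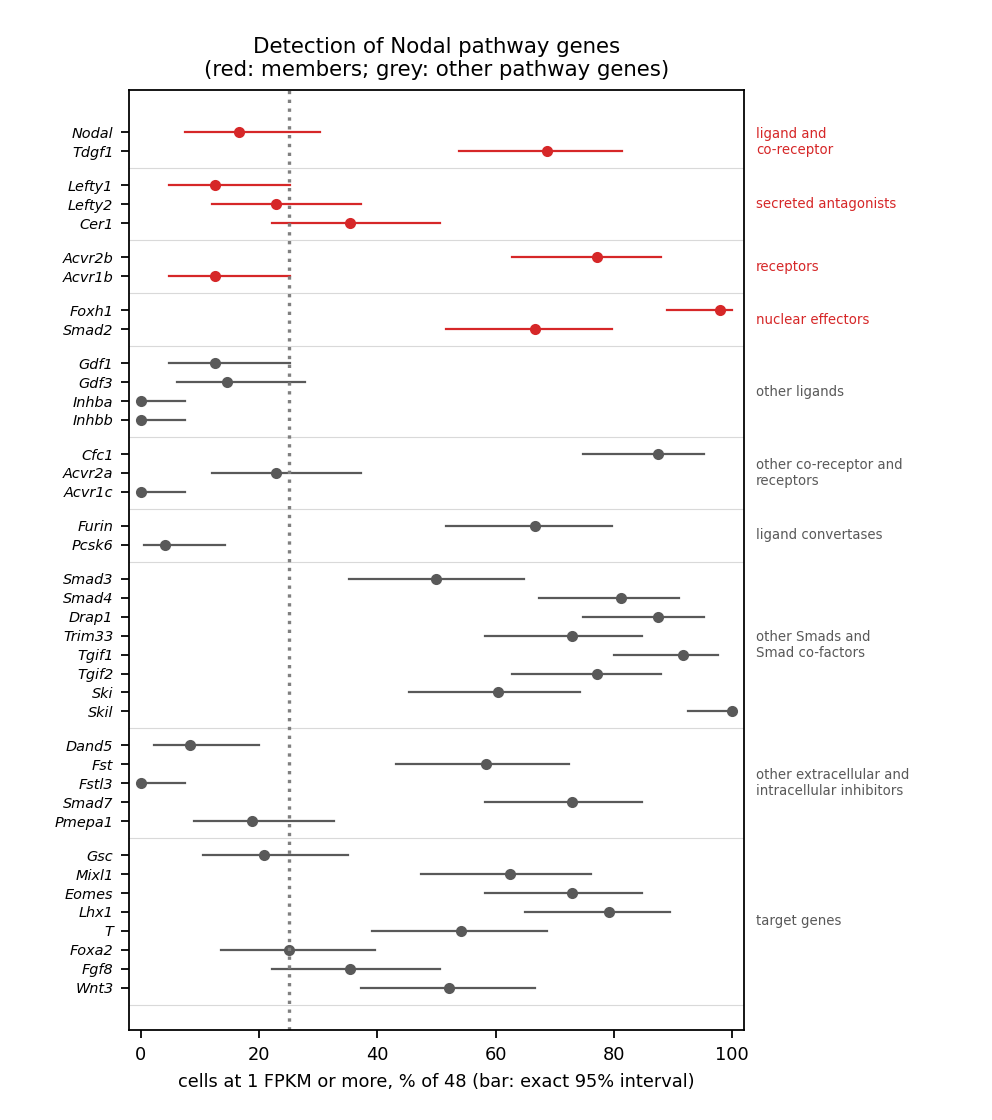
Share of the 48 cells with each gene at 1 FPKM or more (point) with its exact 95% interval (bar), by role, with the 9 members in red and other pathway genes in grey; the dotted line marks 25%. Smad co-factors and targets sit mostly above 50%, and ligands, Acvr1b and Acvr1c below 25%.

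Cfc1, like Tdgf1 an EGF-CFC co-receptor, was detected in 42 cells at a median of 88.2 FPKM, so that 45 of 48 cells had at least 1 EGF-CFC gene and 30 had both. Prss40 and the processed pseudogene Gm28419 overlap Cfc1 on the opposite strand in the annotation, and without strand their reads cannot be told apart. All 8 Nodal cells had Tdgf1 or Cfc1. Acvr2a, the other type II receptor of the list, was detected in 11 cells, each of which also had Acvr2b. Acvr1c, a type I receptor like Acvr1b, was below 1 FPKM in all cells.

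Intracellular components were the most complete group: 8 of 8 Smads and co-factors reached the mark, led by Skil in 48 cells (median 25.9 FPKM) and Tgif1 in 44 (median 50.4 FPKM), which both restrain Smad activity, and by Drap1, which restrains Foxh1, in 42 (median 14.5 FPKM). Smad4, the common partner, was detected in 39 cells, and Smad2, Smad4 and Foxh1 together in 28. Smad3 was detected in 24 cells, 5 of them without Smad2, so that 37 cells had Smad2 or Smad3. Of other inhibitors 2 of 5 reached the mark, Smad7 in 35 cells and Fst, which traps activins, in 28. Pmepa1 was detected in 9 cells, Dand5 in 4 and Fstl3 in none. Of targets of the pathway 7 of 8 did, with Lhx1 in 38 cells, Eomes in 35 and Mixl1 in 30, at medians of 14.3, 28.2 and 21.6 FPKM. Gsc, in 10 cells, was the exception.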

How the data were processed

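Single-cell RNA-seq of 48 cells was read from 1 table with a column per cell, matched to the cells' titles. The values the authors deposited were read as FPKM. The header gives no unit; Cufflinks 2.2.1.0 appears in the submitters' processing notes, as do TopHat 0.7, CASAVA 1.8.2 and mm10, without their roles. Annotation, filters and strand were not given in the sources used here. Rows sharing a symbol were summed (23746 rows, 23284 symbols).

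The labels give 1 group and no culture, so no p-value was made. Detection was 1 FPKM or more; shares carry exact Clopper-Pearson 95% intervals, which cover counting error only. All cells were kept. Doublets were not searched for, since callers need counts and many cells. Correlations used scipy 1.17.1 on log2(FPKM + 1), and a relation was singled out at an absolute rho of 0.4. For members detected in 12 or more cells, the 3 genes with the highest rho were named among genes in 12 or more cells, without short RNA rows. From the lists, up to 3 genes in the most cells and those in none were named. Others, such as Otx2, Cfc1's counts with Tdgf1 and the neighbours of Foxh1, were named after their values were seen. A gene of the pathway list is not reported here. The members, lists and the motifs searched were chosen with earlier results of these data known. Coordinates are from GENCODE M21 (GRCm38), transcript identities from blastn 2.17.0 (80% or more over 100 bases), and promoters from RefSeq (GRCm38.p6). The correlation routine was tested on simulated data. Alternatives varied the detection threshold, measure, scaling and cells.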

Additional observations from a re-analysis of the deposited data

How the results depend on the processing

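Under 7 alternatives (detection at 0.1 or 10 FPKM, each cell scaled to 1000000 without short RNA rows, and 4 subsets of cells, of which the one without the 11 cells over 50% short RNA was chosen after seeing the data) the number of members detected in at least 25% of cells stayed between 4 and 7, beside 5, that of further pathway genes between 15 and 22, beside 19, and the median members per cell between 3 and 5, beside 4. The number of member pairs at an absolute rho of 0.4 was 0 over all cells and under 7 alternatives, but 2 at label numbers up to 48 and 6 above 48, where 5.11% and 6.29% of all gene pairs reached that size, beside 0.644% over 48 cells; these alternatives hold 25 and 23 cells. The relations of Tdgf1 with Eomes (0.66 to 0.85), Sall4 (0.55 to 0.74), Upp1 (0.57 to 0.66) and Mixl1 (0.40 to 0.65), and that of Foxh1 with Kifc2 (0.79 to 0.91), stayed at 0.4 or more under all 8 alternatives tried, and no relation changed sign at that size. So did Cer1 with Pias1, and Smad2 with Tmem209 and Pqlc2. The other most-like genes fell below 0.4 under some alternatives. Their lowest values were 0.36 for Foxh1 with Tmem175 and 0.35 with Vldlr, and 0.37 for Smad2 with Ofd1. For Cer1 they were 0.34 with Pdcd4 and 0.399 with Trnau1ap. For Acvr2b they were 0.39 with Smc6, 0.39 with BC055324 and 0.32 with Cdk2. Pou5f1 and Lhx1 with Tdgf1, Pdgfra with Acvr2b, and Foxa2 with Cer1 and Smad2 also fell below it. Detection shares depended most on the threshold: at 10 FPKM Acvr1b was in 0% of cells, Smad2 in 10.4% and Acvr2b in 50%. No paired analysis was possible because the cells form 1 group. Without counts, a value below 1 FPKM does not show that a transcript was absent.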

Other observations

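Other genes of the pathway gave patterns that a reader may wish to follow. Gdf3, a ligand of the same family, lay above 0 but under 1 FPKM in 32 cells and was detected in 7, up to 56.5 FPKM. Gdf1 was listed at 0 in 42 cells, and 1 cell held 73.1% of its summed level. Dand5, a relative of Cer1, was detected in 4 cells, and 1 cell held 75.1% of its sum.

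Nodal had rho = 0.47 with the summed level of the 7 pluripotency markers and -0.17 with that of the 7 mesoderm markers over the 48 cells, although only 8 cells passed 1 FPKM for Nodal. The pluripotency sum adds FPKM, so Dppa5a (mean 242 FPKM) weighs far more in it than Sox2 (3.53) or Esrrb (1.69). Relations of Nodal with the single markers were not computed. Tdgf1 and Mesp1 had rho = 0.014 over all cells, but 0.55 over the 25 cells with label numbers up to 48 and -0.32 over the 23 cells above; the difference was not tested. Cer1 and Otx2 had rho = 0.46 and r = 0.62 over all cells, with rho = 0.33 and 0.63 in the 2 parts. Of all genes tried with Cer1, 0.42% had a rho of at least 0.4.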
